A study of Homo sapiens with 3 samples.

Results

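The 10 genes described here, which mark epithelial cells and ovarian carcinoma, were examined in the acetylation map of A2780, a human ovarian carcinoma cell line. They were PAX8, WT1, ELF3, MSLN, MUC16, EPCAM, CDH1, KRT7, KRT8 and KRT18, 10 of 19974 protein-coding genes on chromosomes 1 to 22 and X. They were taken by name, and for each gene every peak over its RefSeq span or within 50 kb of either end was read from the deposited lists. CUT&Tag, which tethers a transposase to antibody-bound chromatin, was used to profile histone H3 acetylated at lysine 27 (H3K27ac). For the BPP library, cells had received the BPP peptide, described in the series design as a competitor of the BIN2 phosphorylation site. The CTR library is its H3K27ac control. A TAT peptide was the comparator in the RNA-seq of the study, but the sources used here do not say what the CTR cells were given. The IgG library, made with a non-specific antibody, measured background. Each group was 1 library of the same line, so differences between BPP and CTR have no replicate check and are given without p-values.

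H3K27ac is deposited by acetyltransferases at active promoters and enhancers and is removed by histone deacetylases. PAX8 is a transcription factor of the Müllerian tract and WT1 one of the developing gonad and kidney. Both are used to recognise serous ovarian carcinoma, and ELF3 is an ETS factor of epithelial cells. MSLN encodes mesothelin and MUC16 a membrane mucin measured in serum as an ovarian cancer antigen. EPCAM is an epithelial adhesion molecule, and CDH1 encodes E-cadherin, the adhesion receptor of epithelial adherens junctions. KRT7 and KRT8 are type II keratins and KRT18 is the type I partner with which KRT8 forms the filaments of simple epithelia.

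The lists held 17841 BPP, 14836 CTR and 7701 IgG peaks on the chromosomes used. Read numbers were not given, so depth was unknown, and a place without a peak can still carry signal below the threshold of the peak caller. Folds and −log10 q values are the authors' own and serve here to describe and rank peaks inside a list. All positions are on GRCh38, counted from 1. The gene table has no exons, so a peak inside a span was not assigned to an exon, an intron or a UTR.

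In each H3K27ac list, most of these identity genes had no peak over their span, like most protein-coding genes. KRT8 and KRT18, whose overlapping spans share a peak, had one in BPP and in CTR. In each list that is 2 of 10 (95% Wilson interval 5.67 to 51.0%), beside 40.4% of all protein-coding genes in BPP and 38.5% in CTR. The other 8 genes had none in either list, a count for which the share of all genes is not given here. Within 1 kb of a gene end, BPP had peaks at ELF3, MSLN, KRT8 and KRT18 (4 of 10, interval 16.8 to 68.7%) and CTR at KRT8 and KRT18 (2 of 10), where the shares of all genes were 30.6% and 31.2%. The IgG list had no peak at an end of any of the 10 genes (2.13% of all genes) and 1 peak over a span, that of MUC16 (13.9% of all genes). Widened to 50 kb, 7 genes had a BPP peak and 8 a CTR peak (69.7% and 68.8% of all genes), and 6 had an IgG peak (37.9%). The interval of each of these H3K27ac counts includes the share of all genes. WT1 and KRT7 had no H3K27ac peak in their windows in either list, as did 24.4% of all genes. At neither end did PAX8, WT1, MUC16, EPCAM, CDH1 or KRT7 have a peak in either H3K27ac list (6 of 10), beside 61.8% of all genes. The lists record acetylation and not expression.

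**Figure D1:**
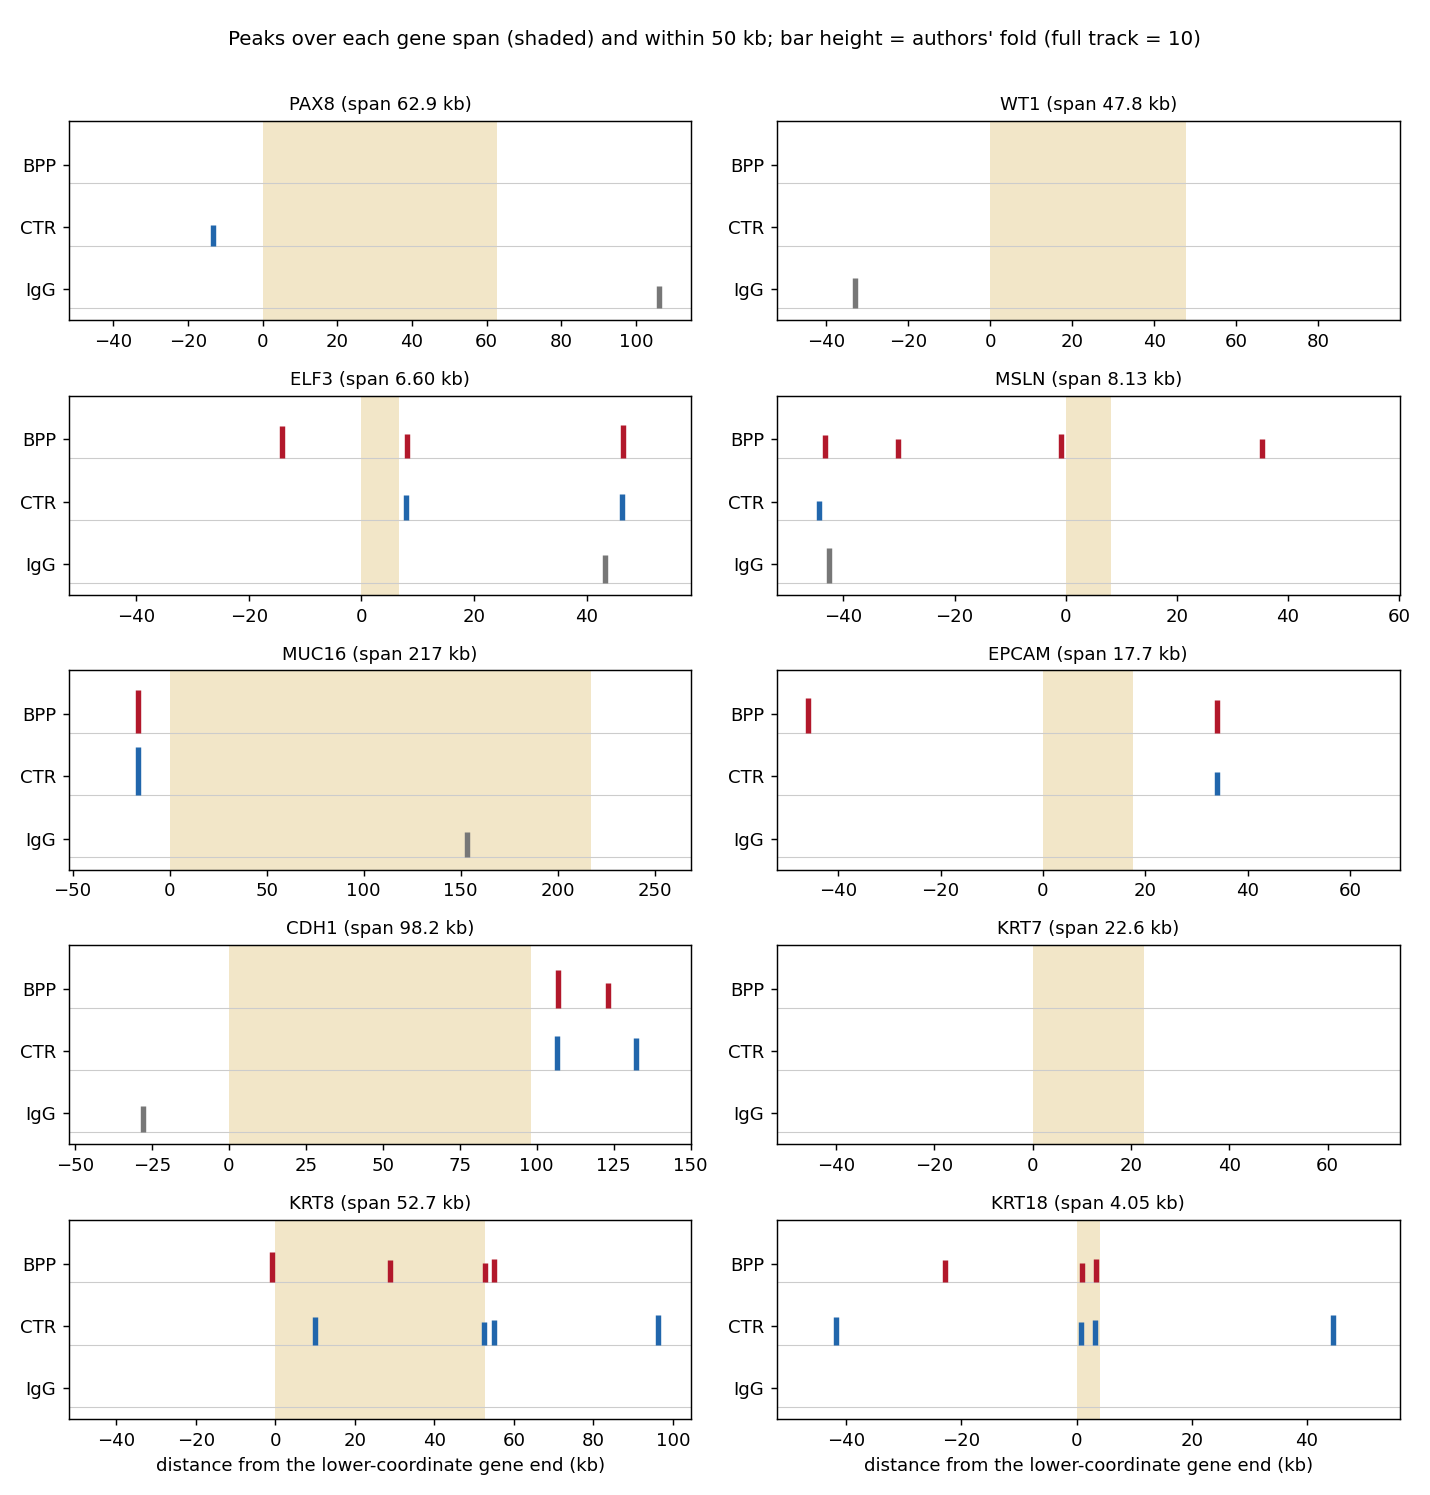
Peaks of the BPP, CTR and IgG lists around each of the 10 genes, by distance in kb from the lower-coordinate gene end, with the gene span shaded; bar height is the authors' fold on a track where the full height is 10. Bars fall inside the shaded span at KRT8 and KRT18 in BPP and CTR and at MUC16 in IgG, and the KRT7 panel is empty.

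The sequence table gave annotated starts for 5 of the 10 genes: ELF3, PAX8, KRT8, WT1 and MUC16. EPCAM, MSLN, CDH1, KRT7 and KRT18 were not in it. The 250 bases before the first listed start of each are shown because no peak of any list overlapped these windows, although the genes differ in base composition. Each is RefSeq sequence of GRCh38.p14, 5′ to 3′ on the gene's strand, and capitals mark CpG dinucleotides.
KRT8 (chr12:52926470-52926719, minus strand): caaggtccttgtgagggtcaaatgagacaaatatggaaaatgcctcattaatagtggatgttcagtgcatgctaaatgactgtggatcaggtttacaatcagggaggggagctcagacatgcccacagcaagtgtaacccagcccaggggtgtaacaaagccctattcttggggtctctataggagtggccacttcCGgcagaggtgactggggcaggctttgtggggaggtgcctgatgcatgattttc
ELF3 (chr1:202010337-202010586, plus strand): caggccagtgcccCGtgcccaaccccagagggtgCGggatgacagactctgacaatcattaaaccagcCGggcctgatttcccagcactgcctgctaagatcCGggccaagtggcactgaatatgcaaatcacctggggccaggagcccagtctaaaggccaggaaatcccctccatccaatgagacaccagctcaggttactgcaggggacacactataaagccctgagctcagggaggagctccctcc
MUC16 (chr19:9065752-9066001, minus strand): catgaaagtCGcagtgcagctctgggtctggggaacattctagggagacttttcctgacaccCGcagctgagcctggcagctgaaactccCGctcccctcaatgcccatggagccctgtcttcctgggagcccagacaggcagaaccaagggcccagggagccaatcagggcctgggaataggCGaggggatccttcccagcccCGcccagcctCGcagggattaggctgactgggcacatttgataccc
PAX8 (chr2:113278922-113279171, minus strand): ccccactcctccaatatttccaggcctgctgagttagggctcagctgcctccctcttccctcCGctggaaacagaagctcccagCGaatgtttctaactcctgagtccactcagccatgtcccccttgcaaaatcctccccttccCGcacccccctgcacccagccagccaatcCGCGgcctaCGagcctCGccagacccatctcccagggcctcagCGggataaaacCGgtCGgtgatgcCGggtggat
WT1 (chr11:32435540-32435789, minus strand): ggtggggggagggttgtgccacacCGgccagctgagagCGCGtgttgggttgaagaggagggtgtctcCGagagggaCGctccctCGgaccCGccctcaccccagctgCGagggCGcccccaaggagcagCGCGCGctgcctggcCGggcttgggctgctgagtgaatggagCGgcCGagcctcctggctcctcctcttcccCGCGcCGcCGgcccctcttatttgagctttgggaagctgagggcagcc

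The 5 genes have 9 listed starts, 4 of them of WT1 and 2 of MUC16. That of KRT8 lies inside the gene span. The 5′ end of the KRT8 span is not among the listed starts, and BPP and CTR each had a peak across it. Over windows from 250 bases before to 50 bases after a start, none of the 9 was overlapped by a peak. That is 0 of 5 genes (interval 0 to 43.4%), beside 23.8% of 15812 protein-coding genes in BPP, 27.8% in CTR and 0.645% in IgG. The interval includes each of these shares. In such a window, KRT8 held 2 CpG, ELF3 7 and MUC16 8 and 7, against a median of 21 over 22132 windows. The PAX8 window held 13 CpG, and the windows of WT1 held 21, 17, 20 and 4. Across all windows, those with the fewest CpG (0 to 12) were overlapped in 6.70% of cases by BPP (6.16 to 7.28) and 5.45% by CTR (4.97 to 5.98). Windows with 13 to 28 CpG were overlapped in 37.4% and 39.4% of cases, and those with 29 to 69 in 17.7% and 28.2%. Thus 5 of the 9 windows of these genes lay in the class with the lowest share of peaks, the other 4 in the class with the highest share, and none in the most CpG-rich class. How far base composition bears on these calls was not tested.

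Short motifs were searched on both strands of the same windows. The letters TATAAA occurred at ELF3, as in 9.46% of all windows, and CACCTG, the E-box bound by SNAI and ZEB repressors, occurred at ELF3 and in both MUC16 windows (4422 of 22132 windows). CCAAT was found at ELF3, at the first MUC16 start and in 2 copies at PAX8 (34.6% of all windows). The GC box GGGCGG had 1 match at the first MUC16 start and 1 at the first WT1 start (56.3% of all windows), and TGANTCA, the AP-1 site, 1 at the other MUC16 start and 1 at the most internal WT1 start (6.15%). KRT8 held none of the 5. A match is a run of letters and not a bound site.

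**Figure D2:**
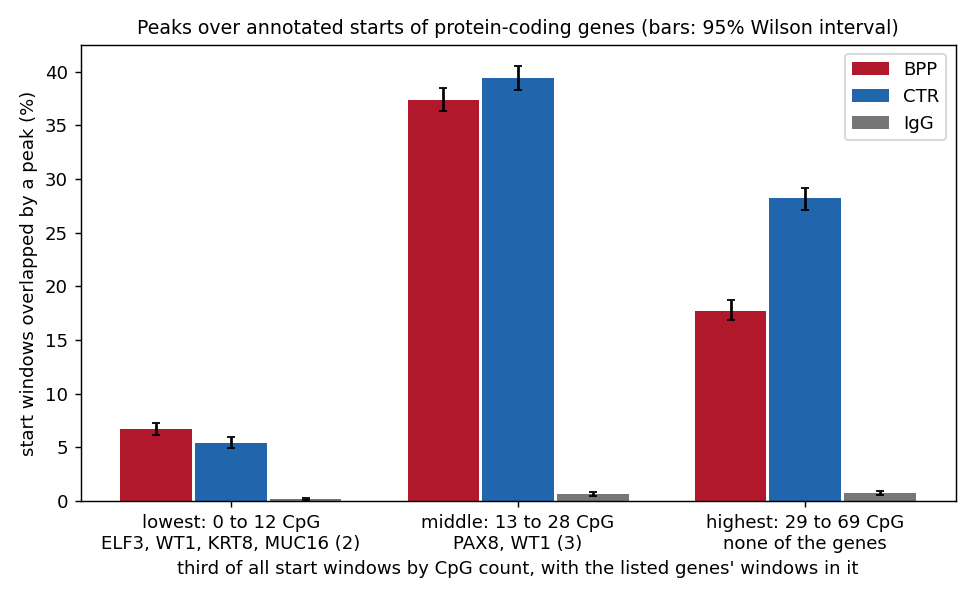
Share of start windows of protein-coding genes overlapped by a peak of each list (y axis, percent), in 3 classes of CpG count (x axis), with 95% Wilson intervals as error bars. The windows of ELF3, KRT8 and MUC16 and 1 of WT1 fall in the lowest class, where BPP covers 6.70% and CTR 5.45%; PAX8 and 3 windows of WT1 fall in the middle class, where the shares are 37.4% and 39.4%.

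Among the transcription factors, PAX8 (Gene ID 7849, chromosome 2, 113215997 to 113278921, minus strand) had no H3K27ac peak over its 62.9 kb span or at an end. Its nearest BPP peak lay 313 kb away, a gap that 10.2% of all protein-coding genes reached or exceeded. CTR had 1 peak in its window, 13.3 kb below the span and inside the neighbouring gene PSD4 (chromosome 2, 113202402 to 113202709; fold 3.33, −log10 q 2.97). That peak is among the weakest of the CTR list, 99.0% of which had an equal or higher −log10 q. The IgG list had a peak 43.0 kb above the span (fold 3.58, −log10 q 2.20). Within 50 kb of PAX8 the H3K27ac lists differed by that weak peak in another gene.

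WT1 (Gene ID 7490, chromosome 11, 32387775 to 32435539, minus strand), which encodes a zinc finger factor of the developing gonad and kidney, had no H3K27ac peak over its 47.8 kb span or within 50 kb. The gap to the nearest peak was 148 kb in BPP and 148 kb in CTR, and 17.6% and 17.5% of all genes were as far from a peak or farther. Only the IgG list had a peak in the window, 32.7 kb below the span (chromosome 11, 32354623 to 32355108; fold 4.74, −log10 q 2.97).

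ELF3 (Gene ID 1999, chromosome 1, 202010587 to 202017183, plus strand) had peaks beyond its 3′ end and none over its span or its start. In BPP the peak spans chromosome 1, 202018173 to 202019204 (fold 3.85, −log10 q 5.98), and in CTR chromosome 1, 202018288 to 202018829 (fold 4.09, −log10 q 6.74). The CTR peak lies wholly within the BPP peak, and they share 542 bp. They began 990 bp and 1105 bp beyond the gene end, so a window of 1 kb takes the BPP peak by 11 bp and misses the CTR peak. With windows of 2 kb ELF3 was marked in both lists, and its entry as a BPP-only gene rests on 115 bp between the edges of overlapping peaks. A further pair of overlapping peaks lay about 40 kb above the gene (chromosome 1, 202056786 to 202057200 in BPP, fold 5.31; 202056505 to 202057210 in CTR, fold 4.20). Another BPP peak, 13.9 kb below ELF3 and inside RNPEP, an aminopeptidase gene (chromosome 1, 201996374 to 201996694; fold 5.14, −log10 q 9.83), had no CTR peak closer than 21.6 kb. The IgG list had 1 peak 36.5 kb above ELF3, 2.66 kb from the nearest BPP peak.

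Of the surface antigens, MSLN (Gene ID 10232, chromosome 16, 760734 to 768865) had an H3K27ac peak at an end in BPP and no counterpart in CTR. The BPP peak (chromosome 16, 759740 to 760139; fold 3.89, −log10 q 7.28) ended 595 bp below the lower-coordinate end of the gene. The nearest CTR peak was 43.2 kb from it. By −log10 q it stood near the middle of the BPP list, 48.3% of which was as high or higher. A BPP-only gene-end peak occurred at 7.03% of all genes and a CTR-only one at 7.57%. With windows of 500 bp MSLN had no gene-end peak in any list.

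The remaining peaks in the window of MSLN fell in other genes. BPP had peaks in METRN, in CIAO3 near its end and that of HAGHL, and in CHTF18, with folds of 3.69, 2.98 and 3.01. CTR had 1 peak, also in METRN (chromosome 16, 716204 to 716580; fold 3.10), which lay 0.640 kb from the BPP peak there (chromosome 16, 717220 to 717733). The IgG list had a peak in METRN as well (chromosome 16, 717831 to 718280; fold 5.52), 0.0980 kb from the BPP peak. The 3 peaks in METRN thus lie side by side without overlap, and the background library is represented among them. What part background has in the METRN peaks was not tested.

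MUC16 (Gene ID 94025, chromosome 19, 8848844 to 9065751, minus strand) had no H3K27ac peak over a span of 217 kb. Of 1396 protein-coding genes of 200 kb or more, 42.3% had a BPP peak over the span, 42.2% a CTR peak and 60.0% an IgG peak. The single peak inside MUC16 was of the IgG list (chromosome 19, 9002054 to 9002409; fold 4.00, −log10 q 2.23). The H3K27ac peaks of its window were the strongest near any of the 10 genes, at fold 6.79 in BPP (chromosome 19, 8832372 to 8833053; −log10 q 15.0) and 7.73 in CTR (chromosome 19, 8832071 to 8832842; −log10 q 15.1). They lay 15.8 kb and 16.0 kb below MUC16 and overlapped annotated starts of ZNF558, a zinc finger gene, and MBD3L1. They share 471 bp, so the lists agreed on this place, and it is at other genes than MUC16.

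EPCAM (Gene ID 4072, chromosome 2, 47369311 to 47387020) likewise had no peak over its 17.7 kb span or at its ends in any list. Its nearest H3K27ac peaks lay 16.0 kb from the span in BPP (fold 5.26, −log10 q 10.8) and 16.1 kb from it in CTR (fold 3.77, −log10 q 4.37), and they overlap each other. BPP had a further peak 45.7 kb below EPCAM, at no coding gene end (fold 5.51, −log10 q 8.20), with no CTR peak closer than 79.6 kb. No IgG peak lay within 50 kb.

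CDH1 (Gene ID 999, chromosome 16, 68737292 to 68835537) had no H3K27ac peak over its 98.2 kb span, and all those in its window lay in the neighbouring gene TANGO6. The nearest were 8.32 kb above CDH1 in BPP (chromosome 16, 68843853 to 68844399; fold 6.03, −log10 q 9.48) and 7.98 kb above it in CTR (chromosome 16, 68843515 to 68843964; fold 5.43, −log10 q 8.02). They share 112 bp and lie within 1 kb of the end of TANGO6, and the CTR peak overlaps its annotated start. Farther inside TANGO6, BPP had a peak of fold 3.89 and CTR a peak of fold 5.03, 8.86 kb apart. The IgG list had 1 peak in CDH3, the P-cadherin gene, 27.6 kb below CDH1.

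**Figure D3:**
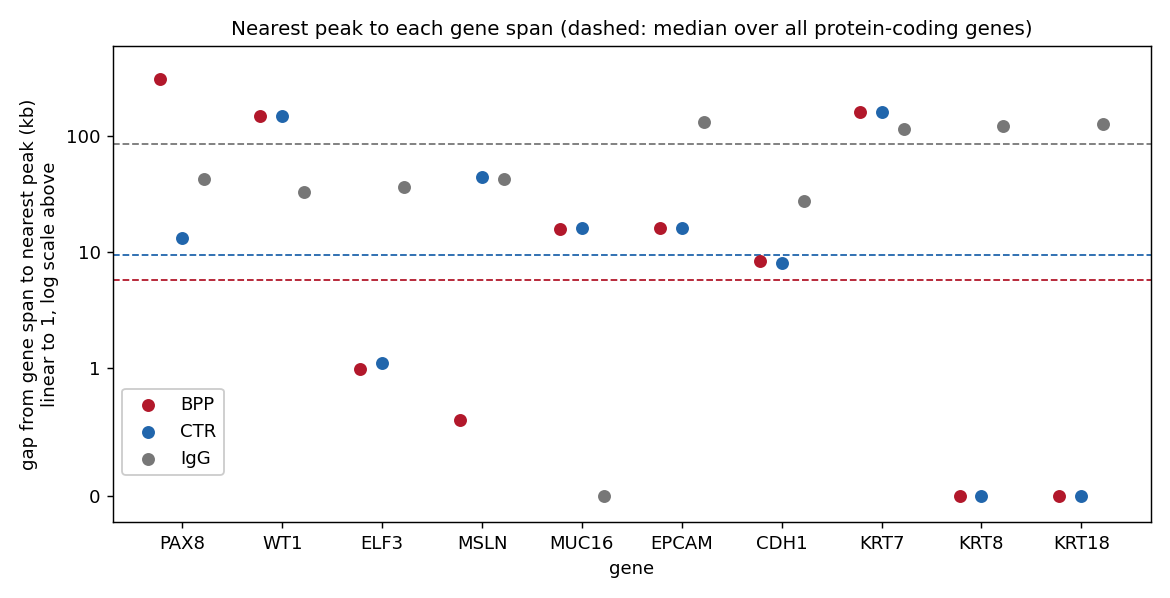
Gap in kb between each gene span and the nearest peak of each list (y axis, linear to 1 and logarithmic above), for the 10 genes (x axis); dashed lines are medians over all protein-coding genes, 5.70 kb in BPP, 9.43 kb in CTR and 85.5 kb in IgG. BPP and CTR points lie close together except at PAX8 (313 against 13.3 kb) and MSLN (0.595 against 44.2 kb).

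The keratins were divided. KRT7 (Gene ID 3855, chromosome 12, 52233243 to 52255853) had no peak of any list over its span or within 50 kb. Its nearest peaks lay 163 kb away in BPP, 163 kb away in CTR and 114 kb away in IgG, and 16.5% and 16.4% of all genes were as far from an H3K27ac peak or farther. KRT8 (Gene ID 3856, chromosome 12, 52897191 to 52949860, minus strand) and KRT18 (Gene ID 3875, chromosome 12, 52948855 to 52952906) are neighbours whose spans overlap, so they share peaks and are not independent observations. Their windows held no IgG peak.

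A pair of overlapping peaks marked the place where KRT8 and KRT18 meet, at the 5′ end of the KRT8 span. The BPP peak (chromosome 12, 52949590 to 52950074; fold 3.14, −log10 q 4.42) and the CTR peak (chromosome 12, 52949527 to 52949878; fold 3.59, −log10 q 5.07) share 289 bp and lie across the higher-coordinate end of KRT8 and inside KRT18. Another pair lay inside KRT18 near its higher-coordinate end, in BPP at 52952094 to 52952458 (fold 3.71, −log10 q 6.33) and in CTR at 52951912 to 52952231 (fold 4.00, −log10 q 6.26), sharing 138 bp. KRT18 therefore had the same 2 marked places in BPP and CTR, and a gene-end peak in both lists is found at 23.6% of all genes. All 4 peaks rank below the middle of their lists: 85.9% and 58.9% of the BPP list, and 75.2% and 60.1% of the CTR list, had an equal or higher −log10 q.

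Along the rest of KRT8 the lists differed. The annotated KRT8 start printed above lies inside the gene span and not at its 5′ end, which a peak of each H3K27ac list crossed. A BPP peak (chromosome 12, 52925635 to 52926311; fold 3.65, −log10 q 4.40) lay 158 bp from it on the transcribed side, with its summit 696 bp from the start, whereas the nearest CTR peak was 19.1 kb from the start. KRT8 was thereby the single gene of the 5 with a peak within 1 kb of a listed start, in BPP and not in CTR. This contrast holds for that internal start only, since both lists had a peak across the 5′ end of KRT8. Over all genes with a listed start, 32.3% had such a peak in BPP, 33.9% in CTR, 1.61% in IgG and 6.43% in BPP and not CTR. BPP also had a peak 0.561 kb beyond the 3′ end of KRT8 (chromosome 12, 52896256 to 52896630; fold 4.79, −log10 q 5.71), with no CTR peak closer than 10.3 kb. CTR in turn had a peak inside KRT8 (chromosome 12, 52906966 to 52907345; fold 4.41, −log10 q 5.83) and a peak 40.4 kb above KRT18 (fold 4.81, −log10 q 5.69), neither overlapped by BPP. The BPP peak beside the start was weak, with 86.1% of the list as high or higher.

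Counted as separate places, 16 BPP, 12 CTR and 6 IgG peaks lay in the windows of the 10 genes. A CTR peak overlapped 7 of the 16 BPP peaks, and a BPP peak 7 of the 12 CTR peaks, where the shares in the whole lists were 50.04% and 59.65%. The pairs include those beyond ELF3 and about 40 kb above it, at ZNF558 and MBD3L1, at TANGO6, and the 2 at KRT18. No IgG peak overlapped any of the 16 BPP or 12 CTR peaks. The same held for most of the whole lists, 17516 of 17841 BPP and 14492 of 14836 CTR peaks. An end of one of the 10 genes lay within 1 kb of 5 BPP and 2 CTR peaks. Another gene's end lay within 1 kb of 4 BPP and 3 CTR peaks, and 7 peaks of each list were at no protein-coding gene end. The share of each whole list that lies at gene ends is not given here, so these counts have no background beside them.

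By the authors' values, the peaks near these genes spread over much of each list. Fold ranged from 2.98 to 6.79 in BPP with a median of 3.89, against 4.36 for the list, and from 3.10 to 7.73 in CTR with a median of 4.15, against 4.64. In BPP 8 of 16 peaks exceeded the list's median −log10 q of 7.11, and in CTR 2 of 12 exceeded its median of 7.18. The 2 CTR peaks above it were those at ZNF558 and MBD3L1 and at TANGO6. Of the peaks at ends of the 10 genes, the highest −log10 q was 7.28 at MSLN in BPP and 6.26 at KRT18 in CTR. None of these 5 BPP and 2 CTR peaks reached a fold of 5 or a place among the top 5000 of its list. In the whole lists, 5964 of 17841 BPP and 6012 of 14836 CTR peaks had a fold of 5 or more.

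**Figure D4:**
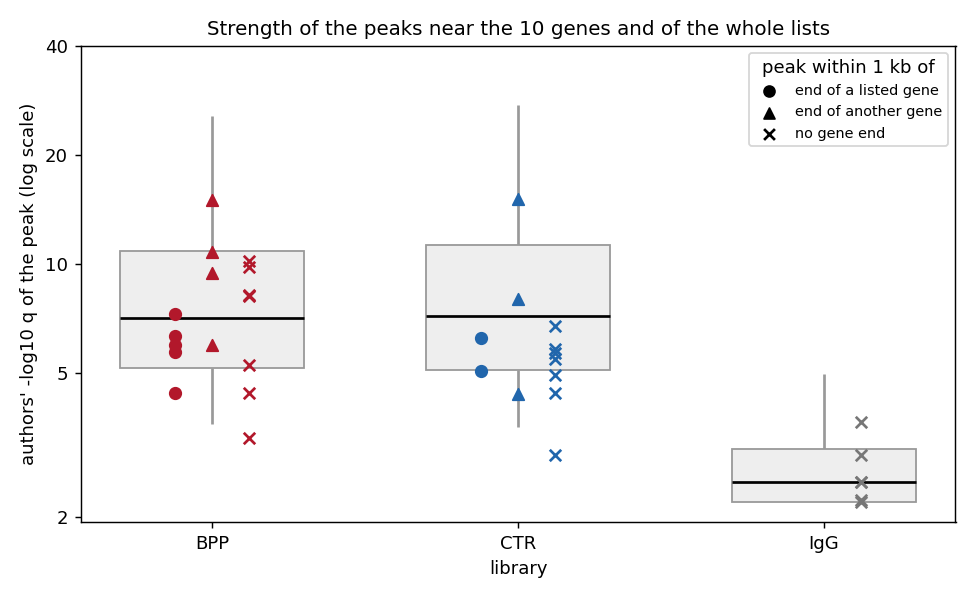
The authors' −log10 q (y axis, logarithmic) of each peak in the windows of the 10 genes, by library, with circles for ends of these genes, triangles for ends of other genes and crosses for no gene end; boxes span the quartiles of the whole list, with the median as a line and whiskers from the 5th to the 95th percentile. The highest points of BPP and CTR, 15.0 and 15.1, are triangles, and the highest circles stand at 7.28 and 6.26.

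Lists of related genes gave the setting of these markers. Of 20 other Müllerian and ovarian carcinoma genes, a peak lay at an end of 1, in BPP and in CTR: ARID1A, a chromatin remodelling subunit (fold 3.73 in BPP and 4.67 in CTR). The share was 5.00% (0.888 to 23.6) in each list, beside 30.6% of all genes in BPP and 31.2% in CTR. Of 30 further junction, keratin and surface genes of epithelia, 4 were marked in both lists, 1 in BPP only and 2 in CTR only, where the shares of all genes were 23.6%, 7.03% and 7.57%. That is 5 of 30 in BPP (interval 7.34 to 33.6%) and 6 of 30 in CTR (9.51 to 37.3%). They include LSR, a tricellular junction protein (fold 9.07 and 9.53), and MUC1, a mucin (fold 4.25 and 3.56). PKP3, a plakophilin of desmosomes, had folds of 3.62 and 2.78, and CGN, the cingulin gene of tight junctions, a BPP peak alone (fold 4.55). Of 15 epithelial regulators, 1 had a gene-end peak in BPP and in CTR, FOXA1. The share was 6.67% (1.19 to 29.8) in each list, again beside 30.6% and 31.2% of all genes. The BPP and CTR peaks at FOXA1 lay 6.61 kb apart (fold 4.11 and 4.78). EHF, an ETS factor related to ELF3, had a gene-end peak in IgG alone (fold 5.00).

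Of 20 mesenchymal genes, 5 were marked in BPP and 5 in CTR (interval 11.2 to 46.9% in each), 4 of them in both lists, an interval that includes the 30.6% and 31.2% of all genes. VIM, the vimentin gene, had folds of 3.55 in BPP and 5.05 in CTR, and ZEB1, a repressor of CDH1, had folds of 5.17 and 5.19. ACTA2 had folds of 5.61 and 4.67, and S100A4 of 3.41 and 3.40. Of 20 markers of other lineages, 2 were marked in BPP and 2 in CTR (interval 2.79 to 30.1% in each). This interval lies below the 30.6% and 31.2% of all genes, as do those of the other Müllerian and ovarian carcinoma genes and of the epithelial regulators. The lists were chosen with earlier results of these data known, so no departure from the share of all genes is concluded from these intervals. FOXL2, a factor of ovarian granulosa cells, was marked in both lists (fold 4.98 and 5.29), AMH, a hormone of the same cells, in BPP (fold 2.65) and SPI1, a myeloid factor, in CTR (fold 4.05). The difference between these lists was not tested, their intervals overlap, and a gene-end window can take in a neighbour's peak.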

How the data were processed

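The 3 CUT&Tag libraries of A2780 cells (BPP, CTR and IgG) were grouped by sample title, 1 library per group. Cells were thawed from frozen vials and processed with a commercial kit, per the labels' protocols. The submitters' processing notes name deepTools 3.3.0, Bowtie2 2.4.1, fastp and the build GRCh38.p13 (hg38). They name no peak caller, and whether IgG was its control is not given in the sources used here.

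A list per library was deposited by the authors, without pooling. The deposited score is 10 times the −log10 p of the peak, rounded down. The deposited fold is a ratio whose background is not described. Each deposited −log10 p-value or −log10 q-value is that of the authors' caller.

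Peaks on chromosomes 1 to 22 and X were used, which left out 28 BPP, 37 CTR and 14 IgG peaks. Overlap counted from 1 bp with gene spans of an NCBI RefSeq table (GRCh38.p14, which shares chromosome coordinates with the authors' patch), with 1 kb on either side of each gene end and with 50 kb on either side of the span. Strand and starts came from a RefSeq promoter table, which covers 15812 protein-coding genes. Wilson intervals of 95% cover counting error only and treat genes as independent. All 10 genes are named, with up to 4 genes of each other list by −log10 q, and neighbouring genes where a described peak lies in them or at their end, except 1 that is not reported here. The genes and the 5 related lists (105 genes, all matched by symbol) were chosen with earlier results of these data known. Depth is unknown, so its effect on precision could not be given. Software was matplotlib 3.10.9, scipy 1.17.1, pandas 2.3.3, numpy 2.4.6 and Python 3.11.15. Overlaps and distances were tested on simulated data against bedtools 2.31.1 and were identical. Alternatives changed the window, the flank, the peaks kept, the use of summits and the overlap rule.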

Additional observations from a re-analysis of the deposited data

How the results depend on the processing

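Of 76 alternative values of the counts above, 48 stayed within 1.5 times the reported value and 28 did not. The 48 include values that could not move. The annotated-start count was 0 in BPP and CTR, and settings that only removed peaks or used summits could not raise it. Keeping peaks of fold 5 or more left 0 members with a gene-end or span peak in BPP and CTR, 4 (BPP) and 2 (CTR) with a peak within 50 kb, 6 and 3 distinct peaks, and 2 overlapped peaks in each direction. With only the top 5000 peaks per list, the gene-end and span counts were 0 in BPP and CTR, 3 BPP and 1 CTR members had a peak within 50 kb, 3 BPP and 1 CTR peaks remained in the windows, and 1 was overlapped in each direction. With −log10 q of 5 or more, span peaks fell to 1 member in BPP, CTR peaks within 50 kb to 5 members, and overlapped peaks to 4 in each direction. For the fold, top-5000, −log10 q and summit settings the share of all genes is not given here, so those counts have no background beside them. Gene-end windows of 500 bp gave 2 members in BPP (KRT8 and KRT18) and 1 in CTR (KRT8), beside 26.3% and 28.4% of all genes. Flanks of 100 kb gave 28 distinct BPP peaks. A peak within 1 kb of an annotated start, an alternative chosen after seeing the data, was found at 1 member in BPP, KRT8. With summits alone, ELF3 lost its BPP gene-end peak and 3 members had one. Leaving out peaks that an IgG peak overlaps could not change any of these counts, because no IgG peak overlapped a BPP or CTR peak in the windows. The values of that setting are also among the 48. No paired analysis was possible because each group has 1 library, and for the same reason no replicate could be left out. How far read depth limits these lists is unknown.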
